A study of Mus musculus with 32 samples.

Results

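Of the 33000 genes counted by 3'Pool-seq in mouse frontal cortex, 7 genes of the oligodendrocyte lineage are described here: the transcription factor genes Olig1, Olig2 and Sox10, the progenitor surface genes Pdgfra and Cspg4, the receptor gene Gpr17 of committed precursors and the phosphatase gene Ptprz1. They were picked by name as known lineage and progenitor genes, and all 7 were present in the count table under a unique identifier. The series tested the method with shrinking amounts of starting RNA. Frontal cortex RNA of WT and GFAP-IL6 homozygous mice aged 3 months, labelled as strain C57BL/6, was reverse transcribed from 50, 10, 1 or 0.5 ng, which gave 8 groups of 4 libraries (32 libraries). GFAP-IL6 mice express interleukin 6 from the promoter of Gfap, which is an astrocyte gene, so the transgene is not targeted to the oligodendrocyte lineage. The libraries were made from whole tissue RNA, in which fewer cells of a type and less RNA per cell cannot be told apart. The labels do not say whether libraries that share a genotype and a number were made from the same animal's RNA, and p-values within an input measure the spread between its libraries.

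Oligodendrocyte progenitors persist in the adult cortex, where they divide, survey the tissue and give rise to myelinating oligodendrocytes. The basic helix-loop-helix factors Olig1 and Olig2 and the HMG-box factor Sox10 specify the lineage and remain on through maturation. Signalling through the receptor encoded by Pdgfra keeps progenitors dividing, Cspg4 encodes the NG2 proteoglycan of their surface, Gpr17 marks cells that have begun to differentiate, and Ptprz1 encodes a receptor-type tyrosine phosphatase that binds pleiotrophin. Some of these genes are also used outside the lineage: Cspg4 by pericytes, Pdgfra by vascular fibroblasts and Ptprz1 by astrocytes.

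In the GRCm38 (mm10) assembly, Olig2 (chr16:91225457-91228677) and Olig1 (chr16:91269772-91271933) lie 41094 bases apart on the plus strand of chromosome 16. The remaining genes are Sox10 (chr15:79154908-79165240, minus strand), Pdgfra (chr5:75152292-75198215, plus strand), Cspg4 (chr9:56865033-56899870, plus strand), Gpr17 (chr18:31942997-31949636, minus strand) and Ptprz1 (chr6:22875502-23052916, plus strand). Gpr17 lies wholly inside Lims2, which is on the opposite strand, and the Olig1 gene overlaps Gm15966 on the opposite strand by 157 bases. Pdgfra overlaps Gm42802 and Gm42803 on the opposite strand and holds the microRNA gene Mir7025. Because the strand setting of the counting was not stated, counts of Gpr17, Olig1 and Pdgfra may include or lose reads of these partners. Olig2, Sox10, Cspg4 and Ptprz1 overlapped no other annotated gene.

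Total counts per library ran from 261378 to 9840302, and the medians from the largest to the smallest input were 3603629, 4463016, 1457725 and 1428120 (n = 8 each). On the scale of CPM, which divides each count by its library total, 3 counts in a library, the limit that a count of 0 allows, were worth between 0.305 and 11.5 CPM, and this floor covers counting error only. Il6, the gene that the transgene expresses, checked the labels. It had 4 to 22 counts in the GFAP-IL6 libraries and 0 to 1 in the WT libraries at 50 ng, and 2 to 41 against 0 to 3 at 10 ng. At 1 ng it had counts in 2 of 4 GFAP-IL6 libraries and in 1 of 4 WT libraries (13 counts), and at 0.5 ng in none of the 8, so that it did not check the labels at these inputs. Gfap was higher in GFAP-IL6 at 50 ng by 2.20 on the log2 scale (SE 0.27), with an adjusted p of 0.000113 (edgeR's quasi-likelihood test, Benjamini-Hochberg). A pair of samples stood apart at every input. WT replicate 3 had summed choroid plexus markers between 3044 and 3418 CPM, against 25.5 to 117 CPM in the other WT libraries, and leaving it out changed no call of the 7 genes. GFAP-IL6 replicate 4 stood apart in genes described here, and results that rest on it are given with and without it.

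Olig1 and Ptprz1 were the most counted of the 7 genes. At 50 ng the mean over all 8 libraries was 95.5 ± 13.4 CPM (SD) for Olig1, 84.3 ± 33.6 for Ptprz1, 10.9 ± 3.43 for Olig2, 9.82 ± 3.66 for Pdgfra, 7.63 ± 2.13 for Sox10, 4.13 ± 2.52 for Cspg4 and 3.13 ± 2.24 for Gpr17. Levels of different genes were compared per kilobase of the gene length in the count table, although reads of this method come from 3' ends. The paper did not divide by gene length for this reason, and part of the order depends on the scale. On plain CPM, Olig1 was above Ptprz1, Pdgfra above Sox10 and Cspg4 above Gpr17, each in 6 of 8 libraries. On the scale of CPM per kilobase, Olig1 (44.2 ± 6.19) was above Ptprz1 (8.43 ± 3.36) in 8 of 8 libraries, and Ptprz1 was above Olig2 (4.46 ± 1.41) in 8 of 8. Olig2 was above Sox10 (2.81 ± 0.785) in 7 of 8 libraries, Sox10 above Pdgfra (1.12 ± 0.417) in 8 of 8 and Pdgfra above Gpr17 (0.603 ± 0.431) in 7 of 8. Gpr17 exceeded Cspg4 (0.513 ± 0.313) in only 4 of 8 libraries, so the lowest neighbours in this order did not differ beyond their spread. At 10 ng Sox10 (4.48 ± 1.42 CPM per kilobase) and Olig2 (4.05 ± 1.14) changed places, with Sox10 higher in 3 of 8 libraries only.

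**Figure D1:**
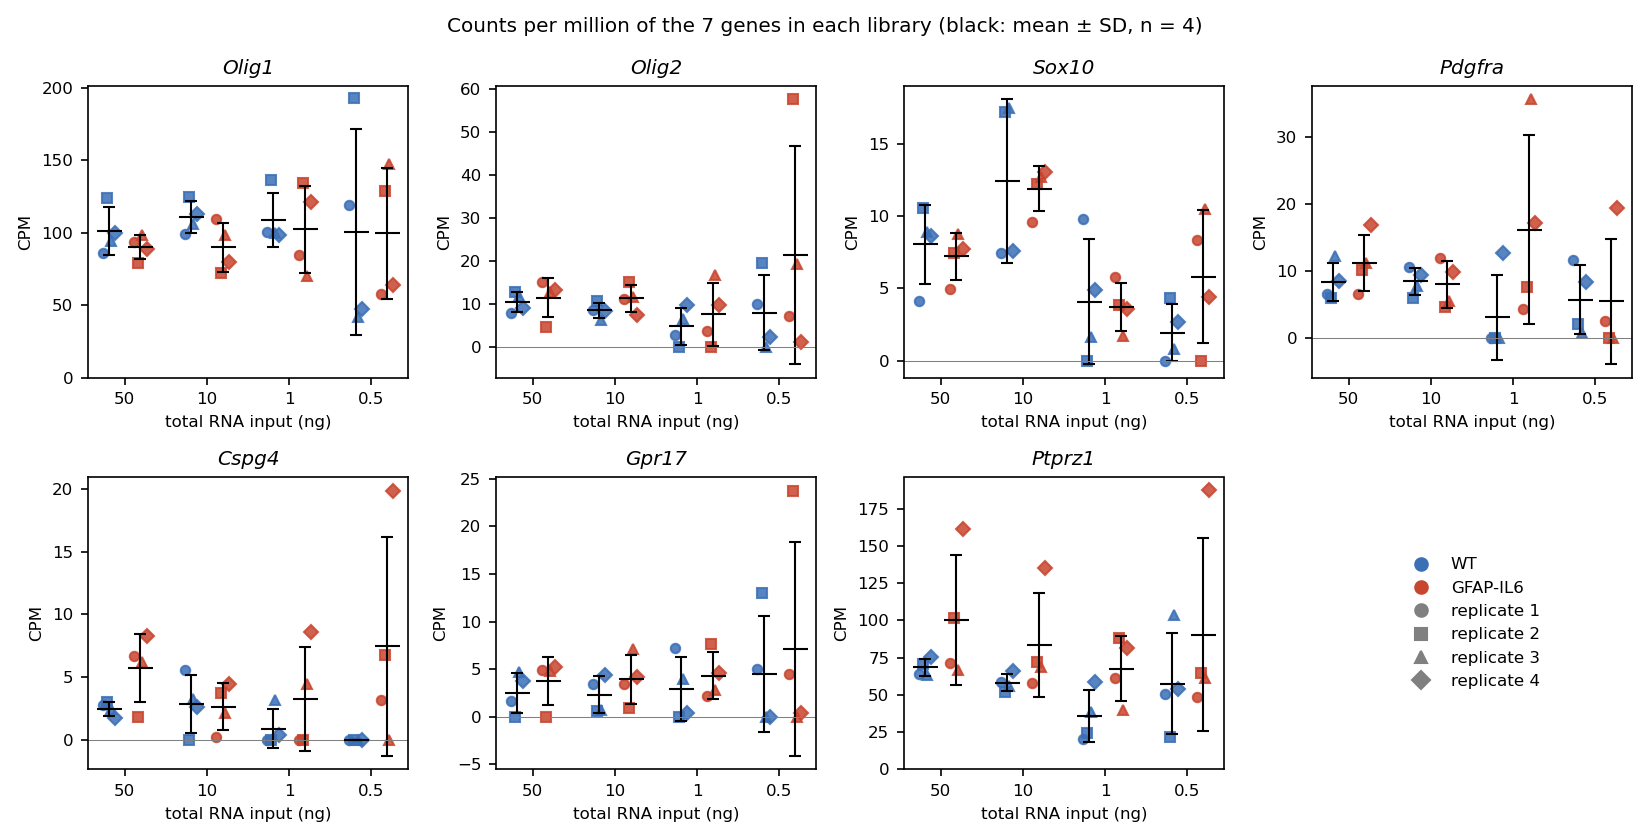
CPM (vertical axis) of each gene in every library, by total RNA input in ng (horizontal axis) and genotype, with marker shape for the replicate number and black bars for mean ± SD (n = 4). WT and GFAP-IL6 points overlap in every panel at 50 and 10 ng, the spread widens at 1 and 0.5 ng, and GFAP-IL6 replicate 4 is the highest Ptprz1 value at 50, 10 and 0.5 ng.

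The comparison of genotypes asked whether lineage genes were counted differently in the cortex of GFAP-IL6 mice. At 50 ng 0 of the 7 genes passed an adjusted p of 0.05 in edgeR's quasi-likelihood test, where 0.28% of the 11773 genes tested passed. At an unadjusted p under 0.05, Cspg4 and Ptprz1 were higher (2 of 7), against 5.63% of all genes tested. Of the 7 log2 fold changes, 5 were positive and 2 negative, with a median of 0.39 beside a median of -0.0034 over all genes tested. At 10 ng 0 of 7 genes passed the adjusted test (0.332% of 12043 genes did) and Ptprz1 alone had an unadjusted p under 0.05 (7.48% of all genes). The median log2 fold change at 10 ng was -0.030, with 3 positive and 4 negative values, beside 0.0034 over all genes tested. DESeq2 also called 0 of the 7 genes at either input, where it called 48 of 11771 genes tested at 50 ng and 67 of 12041 at 10 ng. The values of the 4 GFAP-IL6 libraries overlapped those of the 4 WT libraries for all 7 genes at 50 ng and at 10 ng, while 3.33% and 4.1% of all genes tested had groups that did not overlap.

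**Figure D2:**
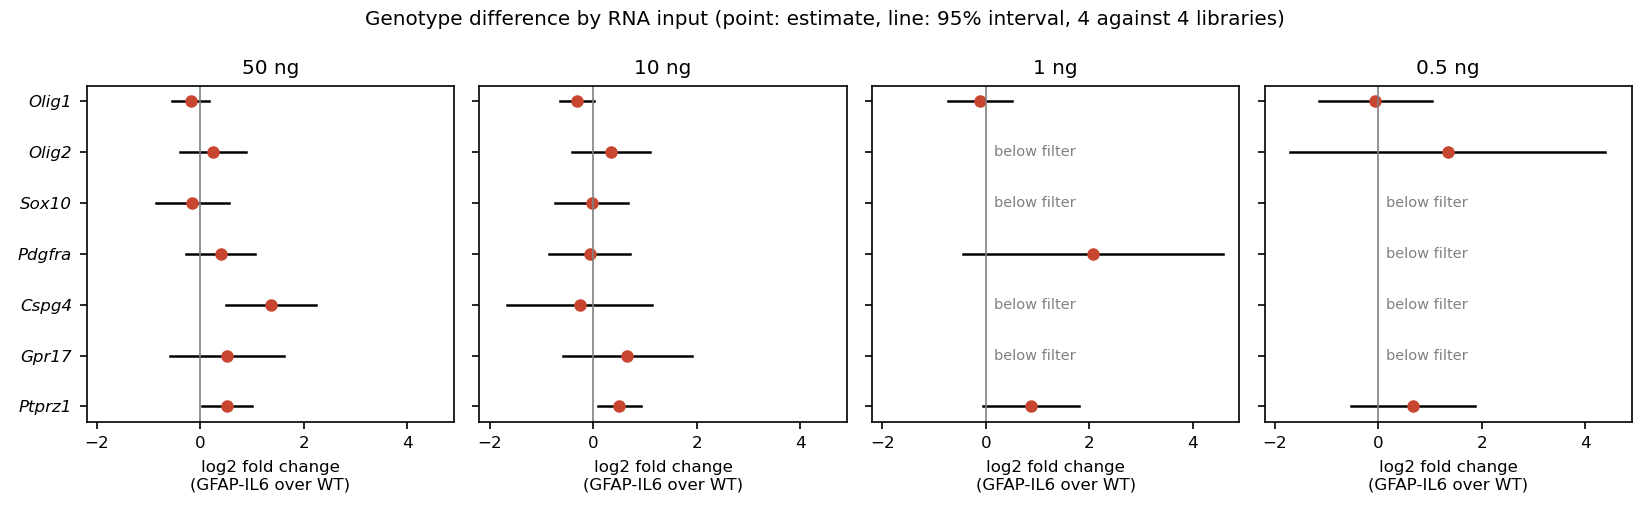
Log2 fold change of GFAP-IL6 over WT (horizontal axis) with its 95% interval for each gene (vertical axis) at the 4 inputs, from edgeR fits of 4 against 4 libraries; genes below the filter on low counts have no point. Intervals cross 0 except for Cspg4 and Ptprz1 at 50 ng and Ptprz1 at 10 ng, and the interval of Olig1 widens from -0.55 to 0.17 at 50 ng to -1.15 to 1.03 at 0.5 ng.

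Olig1, a factor needed for timely maturation of oligodendrocytes, had the narrowest intervals of the transcription factor genes. At 50 ng its WT libraries were at 85.8, 124, 94.3 and 99.9 CPM and its GFAP-IL6 libraries at 93.6, 79.3, 98.2 and 88.7 CPM (replicates 1 to 4). The groups overlapped, with the highest value in WT and the lowest in GFAP-IL6. The log2 fold change was -0.19 (SE 0.17, 95% interval -0.55 to 0.17), with an adjusted p of 0.843. At 10 ng the WT libraries were at 98.9, 125, 106 and 112.5 CPM and the GFAP-IL6 libraries at 109, 72.3, 98.2 and 79.6 CPM. Of the GFAP-IL6 values, 3 of 4 lay below every WT value, and the log2 fold change was -0.31 (SE 0.16, 95% interval -0.65 to 0.017, edgeR adjusted p = 0.683).

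Olig2, which is required for the specification of oligodendrocyte progenitors, lay about an order of magnitude below its neighbour Olig1 on the scale of CPM per kilobase. Its WT libraries at 50 ng were at 7.75, 12.8, 11.7 and 9.02 CPM, and its GFAP-IL6 libraries at 15.1, 4.66, 12.7 and 13.3 CPM. Both the highest and the lowest value were in GFAP-IL6, and the lowest rested on 5 counts. The log2 fold change was 0.24 (SE 0.30) at 50 ng and 0.34 (SE 0.37) at 10 ng, both with 95% intervals that included 0 (-0.39 to 0.87 and -0.41 to 1.09). At 10 ng the WT libraries were at 8.64, 10.6, 6.32 and 8.32 CPM and the GFAP-IL6 libraries at 11.1, 15.0, 11.5 and 7.42 CPM. GFAP-IL6 replicates 1, 2 and 3 were above every WT library at this input, whereas replicate 4 was below all but WT replicate 3.

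Sox10, which directs the expression of myelin genes, gave log2 fold changes near 0. At 50 ng its values were 4.15, 10.5, 8.90 and 8.62 CPM in WT and 4.92, 7.46, 8.76 and 7.71 CPM in GFAP-IL6, and all 4 GFAP-IL6 values fell inside the WT range. The log2 fold change was -0.16 (SE 0.34, 95% interval -0.87 to 0.55) at 50 ng and -0.030 (SE 0.35, 95% interval -0.74 to 0.68) at 10 ng. A difference of 2-fold in either direction therefore lay outside both intervals for Sox10, as it did for Olig1. WT libraries at 10 ng formed a low pair (7.40 and 7.60 CPM) and a high pair (17.2 and 17.4 CPM), with all 4 GFAP-IL6 libraries (9.60 to 13.01 CPM) between them.

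Pdgfra encodes the receptor for platelet-derived growth factor AA. At 50 ng it was at 6.64, 6.02, 12.2 and 8.62 CPM in WT and at 6.66, 10.3, 11.3 and 16.8 CPM in GFAP-IL6. The highest value was GFAP-IL6 replicate 4, and the other GFAP-IL6 values lay within the WT range. The log2 fold change was 0.39 (SE 0.32, 95% interval -0.27 to 1.05) with all libraries and 0.082 without GFAP-IL6 replicate 4. At 10 ng it was -0.069 (SE 0.39, 95% interval -0.86 to 0.72), with means of 8.49 ± 2.07 CPM in WT and 8.07 ± 3.52 CPM in GFAP-IL6 (n = 4 each). Summed vascular fibroblast markers (8 genes), which label other cells that use Pdgfra, were 71.2 to 135 CPM in WT and 79.0 to 132 CPM in GFAP-IL6 at 50 ng, and their part in Pdgfra was not tested.

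Cspg4 had the largest log2 fold change of the 7 genes at 50 ng, at 1.36 (SE 0.42, 95% interval 0.49 to 2.23), and its unadjusted p of 0.00365 became 0.457 after adjustment (edgeR, Benjamini-Hochberg). Its WT libraries were at 2.77, 3.01, 2.504 and 1.72 CPM, or 4 to 13 counts, and its GFAP-IL6 libraries at 6.66, 1.87, 6.23 and 8.24 CPM, or 2 to 46 counts. GFAP-IL6 replicates 1, 3 and 4 were above every WT library, and replicate 2, with 2 counts, was below WT replicates 1 to 3. At 10 ng the difference was not repeated: the WT libraries were at 5.55, 0, 3.28 and 2.61 CPM and the GFAP-IL6 libraries at 0.246, 3.76, 2.18 and 4.47 CPM. The log2 fold change there was -0.26 (SE 0.69, 95% interval -1.67 to 1.14), and the change in genotype effect between 10 and 50 ng was -1.60 (SE 0.87, edgeR unadjusted p = 0.0756, adjusted p = 0.9999). Leaving out each library in turn kept the value at 50 ng between 1.16 and 1.53. Pericyte markers, which label another cell type that uses Cspg4, summed over 8 genes to 114 to 130 CPM in WT and 158 to 196 CPM in GFAP-IL6 at 50 ng, without overlap. The same sum at 10 ng was 113 to 131 CPM in WT and 148 to 180 CPM in GFAP-IL6, also without overlap, and 0 of the 6 pericyte genes tested passed an adjusted p of 0.05 at either input. Pericyte sums of WT and GFAP-IL6 overlapped at 1 ng (87.5 to 207.5 and 91.8 to 152 CPM) and at 0.5 ng (89.3 to 119.7 and 108.5 to 247 CPM). Sums of other lists also separated the genotypes. Microglia markers did so at every input, and PDGF ligands and signalling genes at 1 ng (235 to 353 CPM in WT, 382 to 467 in GFAP-IL6). Further lineage regulators did so at 1 ng in the other direction (1184 to 1290 CPM in WT, 1044 to 1135 in GFAP-IL6). The part of pericytes in the Cspg4 counts was not tested.

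Gpr17, a receptor that is on in committed precursors and off in mature oligodendrocytes, was near the limit of counting even at 50 ng. Its WT libraries had 6, 0, 17 and 28 counts (1.66, 0, 4.73 and 3.71 CPM) and its GFAP-IL6 libraries 17, 0, 21 and 29 counts (4.92, 0, 4.84 and 5.20 CPM). Replicate 2, the library with the lowest total of each genotype, was at 0 in both, and the other GFAP-IL6 values were just above the highest WT value. The log2 fold change was 0.52 (SE 0.53, 95% interval -0.58 to 1.62) at 50 ng and 0.66 (SE 0.61, 95% interval -0.59 to 1.90) at 10 ng.

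Ptprz1, the phosphatase gene shared with astrocytes, gave log2 fold changes of 0.52 (SE 0.23) at 50 ng and 0.51 (SE 0.21) at 10 ng, with unadjusted p of 0.0360 and 0.0190 and adjusted p of 0.835 and 0.562 (edgeR, Benjamini-Hochberg), so neither passed the adjusted test. At 50 ng the WT libraries were at 64.2, 70.7, 63.2 and 75.3 CPM and the GFAP-IL6 libraries at 71.5, 102, 66.4 and 162 CPM. At 10 ng they were at 58.4, 52.2, 56.1 and 65.8 CPM in WT and at 57.6, 72.3, 68.6 and 135 CPM in GFAP-IL6. WT values were tight at both inputs, and the GFAP-IL6 mean was raised mainly by replicate 4. Without GFAP-IL6 replicate 4 the log2 fold change was 0.15 at 50 ng (unadjusted p = 0.338 from edgeR's fit of all genes) and 0.13 at 10 ng (unadjusted p = 0.480).

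GFAP-IL6 replicate 4 had 2.29, 2.31, 2.07 and 3.50 times the median Ptprz1 level of the other 7 libraries at 50, 10, 1 and 0.5 ng, and was the highest of 8 at every input but 1 ng. Cspg4 was also highest in this replicate at 50, 1 and 0.5 ng (8.24, 8.57 and 19.8 CPM), and Pdgfra at 50 and 0.5 ng (16.8 and 19.5 CPM). Olig1 in the same libraries (88.7, 79.6, 121 and 63.9 CPM) and Sox10 (7.71, 13.01, 3.57 and 4.41 CPM) lay within the range of the others. Several other measures of these libraries stood apart as well. Summed mature oligodendrocyte and myelin markers were lowest there at 50 ng (4132 CPM against 5423 to 8175) and at 10 ng (4680 against 4741 to 8356). Summed astrocyte markers were highest there at 50 ng (4635 CPM against 3262 to 3966). Slc1a2 alone gave 2602 CPM of this sum, against 913 to 1202 CPM in the other libraries. Without Slc1a2, the astrocyte sum at 50 ng was lowest in this replicate. Microglia markers were the lowest of the 4 GFAP-IL6 libraries (873 CPM against 1421 to 1921 at 50 ng). The long non-coding RNA Meg3, looked at after the values were seen, was at 4865 CPM against 1169 to 1958 in the other libraries at 50 ng and at 3202 against 1237 to 2730 at 10 ng, and was not the highest at 0.5 ng (1965 against 1072 to 2230). Malat1, another long non-coding RNA looked at together with Meg3, lay within the range of the others at every input (19730 CPM against 13140 to 25540 at 50 ng). Mitochondrial transcripts took 18.9% of the counts of this replicate at 50 ng, against 12.4% to 18.3% in the others. They lay within the range of the others at 10, 1 and 0.5 ng. What part these differences have in the Ptprz1, Pdgfra and Cspg4 values was not tested.

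**Figure D3:**
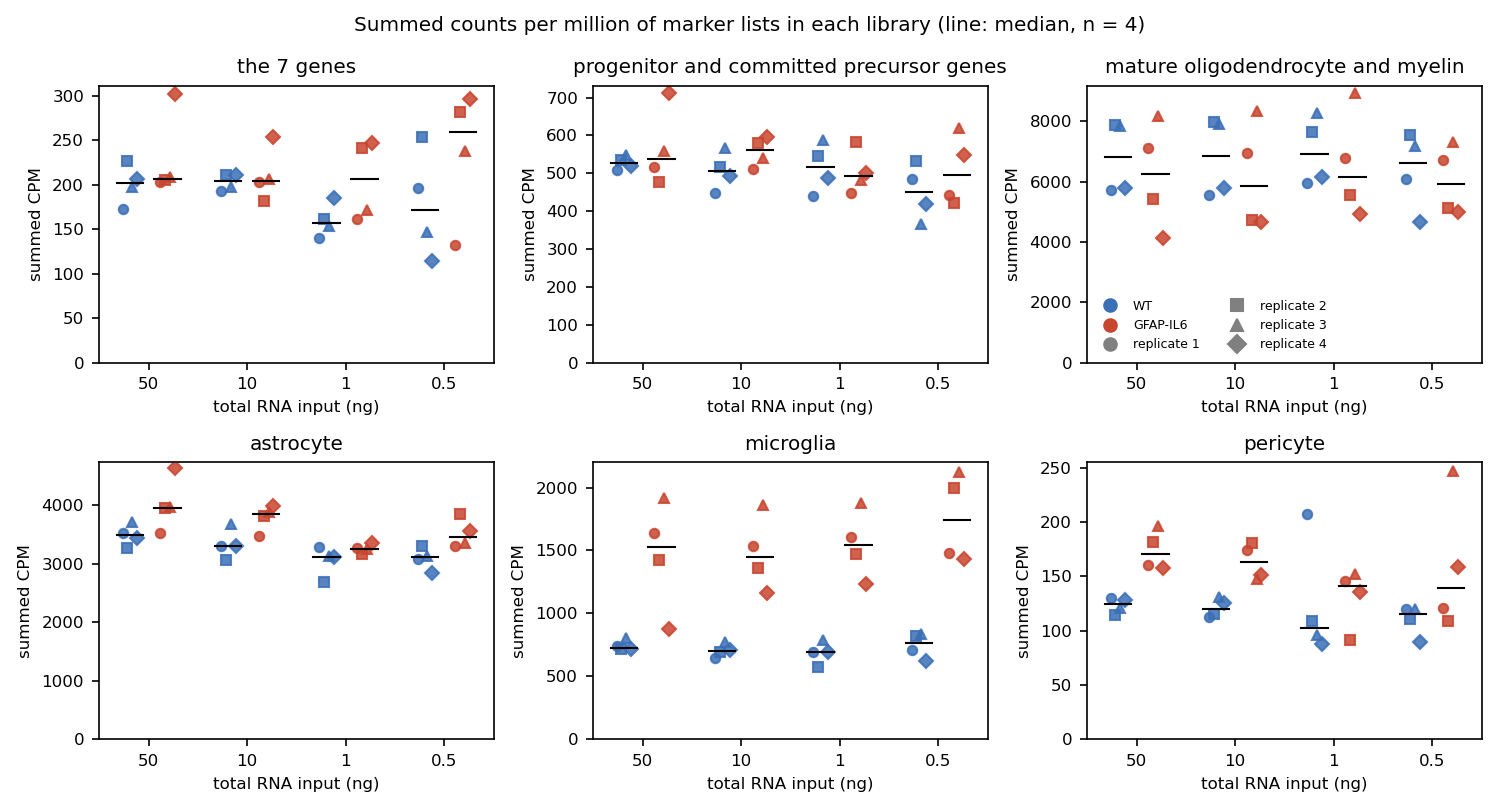
Summed CPM (vertical axis) of the 7 genes and of 5 marker lists in each library by input (horizontal axis), with marker shape for the replicate number and a line at the median of 4 libraries. GFAP-IL6 replicate 4 is highest for the sum of the 7 genes at all 4 inputs. In that replicate Ptprz1 gives 162 of 302 CPM at 50 ng and 188 of 297 CPM at 0.5 ng. Without Ptprz1 the sum is not highest there at 50, 10 or 0.5 ng. The same replicate is lowest for myelin markers at 50, 10 and 1 ng, and microglia sums do not overlap between genotypes at any input.

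Among genes with a mean of at least 10 CPM at 50 ng (8749 genes), those whose log2 levels followed each of the 7 genes most closely over libraries were listed by the mean of Pearson's r at 50 and at 10 ng (8 libraries each). For Ptprz1 these were Slc1a2, a glutamate transporter gene of astrocytes (mean r 0.948), Kmt2a (0.935) and Ttc14 (0.934). Slc1a2 was at 2602 CPM in GFAP-IL6 replicate 4 at 50 ng, against 913 to 1202 CPM elsewhere. Without that replicate, r between Ptprz1 and Slc1a2 was 0.936 at 50 ng and 0.759 at 10 ng (7 libraries). For Sox10 the first was Mal, a gene of compact myelin (mean r 0.804). The first for Olig1 was Fam181b (0.863), for Olig2 Eif2ak4 (0.855), for Pdgfra Rab23 (0.850), for Cspg4 Kif21b (0.851) and for Gpr17 Med14 (0.843). These are the highest of 8749 values over few libraries that share genotype, depth and replicate number, and are given as a description.

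**Figure D4:**
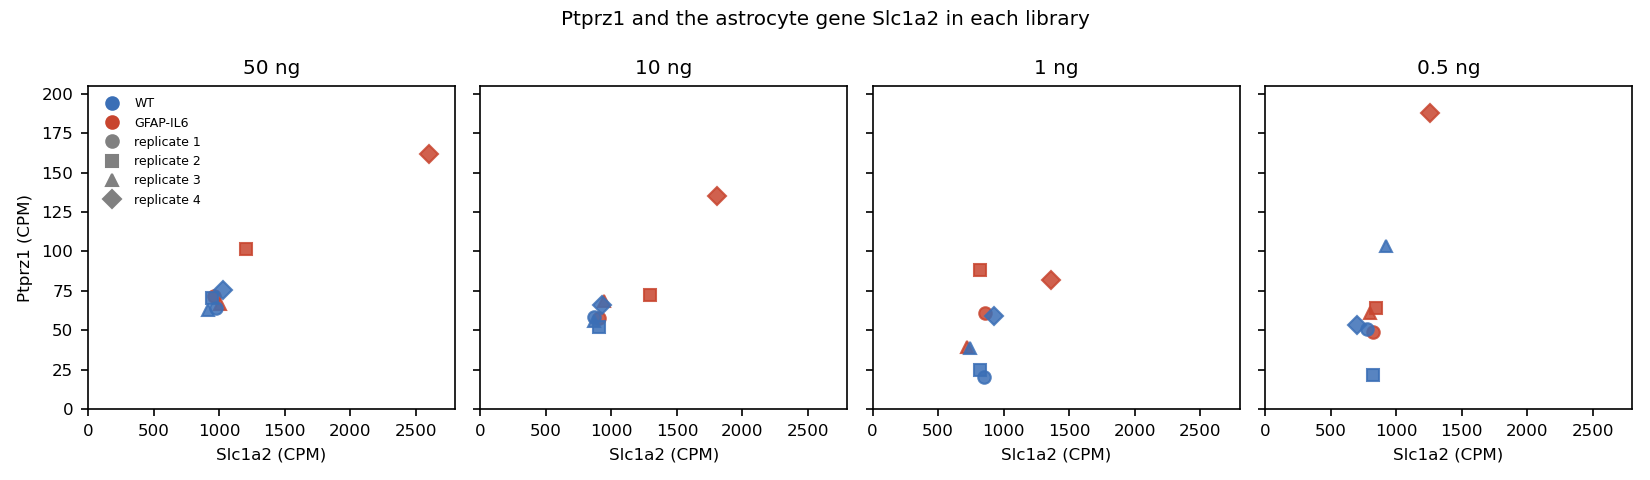
Ptprz1 (vertical axis, CPM) against Slc1a2 (horizontal axis, CPM) in each library at the 4 inputs, with colour for genotype and shape for replicate number. GFAP-IL6 replicate 4 lies to the right of the other libraries in every panel, and GFAP-IL6 replicate 2 is next at 50 and 10 ng.

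Correlations between pairs of the 7 genes over libraries were mostly weak. At 50 ng Pearson's r ran from -0.498 to 0.694 with a median of 0.129, and 0 of 21 pairs passed a Benjamini-Hochberg adjusted p of 0.05 in two-sided exact permutation tests over all pairings of the 8 libraries. The highest pair was Olig2 with Cspg4, with r = 0.694 (exact permutation p = 0.0434, adjusted p = 0.630) and Spearman's rho = 0.762 (exact permutation p = 0.0368, adjusted p = 0.505), and r was 0.764 without the 2 libraries farthest from the median of Olig2. Olig1 and Olig2, which share a locus, had r = 0.533 with all libraries and -0.0672 without the 2 farthest. At 10 ng r ran from -0.688 to 0.433, with 8 of 21 pairs positive and 0 past either an unadjusted or an adjusted p of 0.05.

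With less RNA, most of the 7 genes were at 0 counts in some libraries. At 50 ng and at 10 ng, 6 of 7 genes had at least 1 count in all 8 libraries, and at 1 ng and at 0.5 ng 2 of 7 did, Olig1 and Ptprz1. Of the 56 gene and library combinations of an input, 2 were at 0 with 50 ng, 1 with 10 ng, 11 with 1 ng and 13 with 0.5 ng. With every library thinned to 261378 counts, the genes present in all 8 libraries were 4, 5, 2 and 2 of 7 at 50, 10, 1 and 0.5 ng. At equal depth the difference between the larger and the smaller inputs was thus 2 or 3 genes, where it was 4 without thinning. Cspg4 reached 3 counts in 7, 6, 3 and 2 of 8 libraries from 50 to 0.5 ng, and Pdgfra in 8, 8, 4 and 4.

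**Figure D5:**
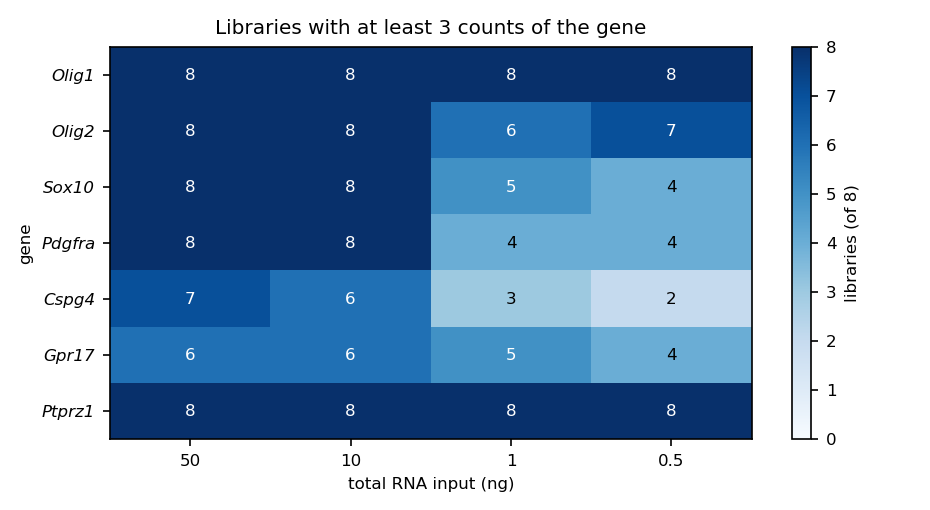
Number of libraries, of 8, in which each gene (vertical axis) had at least 3 counts at each total RNA input in ng (horizontal axis); darker cells are higher numbers. Olig1 and Ptprz1 stay at 8 of 8 at every input, and Cspg4 falls from 7 to 2.

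The mean levels of the 7 genes were compared between inputs over both genotypes, in fits of the 16 libraries of 50 ng and a lower input. The fits did not use the replicate numbers. Counts of same-numbered pairs are given as a description, since the labels do not state a pairing. At 10 ng against 50 ng 0 of 7 genes passed an adjusted p of 0.05, as did 0% of the 12599 genes tested, and 1 gene, Sox10, had an unadjusted p under 0.05 (4.36% of all genes). Sox10 was at 7.63 ± 2.13 CPM at 50 ng and 12.1 ± 3.85 CPM at 10 ng (n = 8 each), and was higher at 10 ng in 7 of 8 same-numbered pairs. Its log2 difference was 0.68 (SE 0.24, 95% interval 0.19 to 1.16, edgeR adjusted p = 0.925). The other 6 genes differed by -0.43 to 0.095 on the log2 scale.

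At 1 ng against 50 ng 0 of 7 genes passed the adjusted test, where 1.14% of 11290 genes did, and Ptprz1 had an unadjusted p under 0.05 (11.2% of all genes). Ptprz1 was at 84.3 ± 33.6 CPM at 50 ng and 51.6 ± 25.1 CPM at 1 ng, and was lower at 1 ng in 8 of 8 same-numbered pairs, with a log2 difference of -0.68 (SE 0.24, 95% interval -1.16 to -0.20, edgeR adjusted p = 0.190). Its mean at 0.5 ng, 73.9 ± 51.3 CPM, was not lower in the same way (log2 difference -0.13, SE 0.30). At 0.5 ng against 50 ng 0 of 7 genes passed the adjusted or the unadjusted test, where 1.68% and 11.7% of 11406 genes did. Olig1 had log2 differences from 50 ng of 0.095 (SE 0.11) at 10 ng, 0.18 (SE 0.16) at 1 ng and 0.091 (SE 0.27) at 0.5 ng. At 0.5 ng the 95% intervals of Olig2 (-1.34 to 1.76), Sox10 (-2.62 to 0.55), Pdgfra (-2.199 to 0.99), Cspg4 (-3.15 to 0.97) and Gpr17 (-1.49 to 2.78) all held a 2-fold fall, so that a fall of this size could not be told from no change.

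The variance of Olig1 between WT libraries, divided by the variance that counting alone gives, went from 5.19, 3.11 and 1.56 at the 3 larger inputs to 55.1 at 0.5 ng. Between GFAP-IL6 libraries it was 1.48, 12.04, 11.7 and 37.9 from 50 to 0.5 ng, already above its 50 ng value at 10 and 1 ng. The median over all genes tested was 2.34, 4.31, 7.63 and 15.3 in WT and 5.86, 6.31, 8.36 and 15.96 in GFAP-IL6. At 0.5 ng the WT libraries held 143, 89, 54 and 125 counts of Olig1, equal to 119, 193, 41.7 and 47.5 CPM, and the GFAP-IL6 libraries 57.7, 129, 147 and 63.9 CPM. The lowest of these WT values was below, and the highest above, every Olig1 value at the other inputs. For Ptprz1 the same ratio in WT was 2.41, 2.42, 12.4 and 17.8 from 50 to 0.5 ng. The coefficient of variation of Olig1 in WT was 16.3% at 50 ng and 70.9% at 0.5 ng.

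At 1 ng only Olig1, Pdgfra and Ptprz1 passed the filter on low counts for the genotype comparison, and at 0.5 ng Olig1, Olig2 and Ptprz1 did. Of these, 0 of 3 were called at either input (0.0323% of 9276 and 0.0117% of 8571 genes were called), 0 of 3 had an unadjusted p under 0.05 (3.59% and 2.87% of all genes), and 0 of 3 had groups that did not overlap (3.07% and 2.81%). Ptprz1 at 1 ng was at 20.3, 24.6, 38.6 and 58.9 CPM in WT and 61.2, 88.0, 39.6 and 81.8 CPM in GFAP-IL6. GFAP-IL6 replicates 1, 2 and 4 were above every WT library at this input, and the log2 fold change was 0.87 (SE 0.44, 95% interval -0.055 to 1.79). At 0.5 ng it was 0.66 (SE 0.57), and -0.021 without GFAP-IL6 replicate 4, which stood at 188 CPM against 48.7 to 64.4 CPM in the other GFAP-IL6 libraries. Olig1 differed by -0.11 (SE 0.30) at 1 ng and by -0.061 (SE 0.52) at 0.5 ng.

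Pdgfra at 1 ng had 0, 0, 0 and 31 counts in WT and 6, 2, 64 and 48 in GFAP-IL6, with a log2 fold change of 2.07 (SE 1.21, 95% interval -0.45 to 4.58, edgeR adjusted p = 0.997). Leaving out 1 library at a time gave 1.43 to 2.39, except without WT replicate 4, where the remaining WT libraries were at 0 and the pooled GFAP-IL6 level was at least 20.1-fold higher against 3 counts over those libraries. At 0.5 ng Pdgfra was at 11.6, 2.17, 0.772 and 8.36 CPM in WT and at 2.56, 0, 0 and 19.5 CPM in GFAP-IL6. The group means there were 5.74 ± 5.14 and 5.51 ± 9.38 CPM (n = 4 each), and the GFAP-IL6 mean was 0.854 ± 1.48 CPM without replicate 4 (n = 3). Olig2 at 0.5 ng had 12, 9, 0 and 6 counts in WT and 11, 17, 37 and 3 in GFAP-IL6, with a log2 fold change of 1.34 (SE 1.45, 95% interval -1.70 to 4.38) that was 0.19 without GFAP-IL6 replicate 2 and 2.23 without WT replicate 2.

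Cspg4 at 0.5 ng had 0 counts in all 4 WT libraries and 5, 2, 0 and 54 counts in the GFAP-IL6 libraries. Against a floor of 3 counts over the WT group, its pooled level in GFAP-IL6 was at least 17.5-fold higher, and at least 3.46-fold higher without replicate 4, which held 54 of the 61 counts. Of the 1518 genes with a mean of 3 to 6 CPM at 50 ng, the range in which Cspg4 lies, 15.5% were at 0 in all 4 WT libraries at 0.5 ng and 10.9% in all 4 GFAP-IL6 libraries. Cspg4 did not pass the filter in the fit of the 0.5 ng libraries. In a fit of all 32 libraries, which shares a spread across inputs, it was the only 1 of the 7 genes called. That fit called 655 of the 12164 genes tested between genotypes at 0.5 ng.

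An interaction term tested if the difference between genotypes changed with the input. For 10 ng against 50 ng 0 of 7 genes passed an adjusted p of 0.05 (0% of 12599 genes) and 0 of 7 an unadjusted p of 0.05 (1.38% of all genes). For 1 ng the counts were 0 and 0 of 7, beside 0% and 4.17% of 11290 genes. For 0.5 ng they were 0 and 1 of 7, beside 0% and 6.65% of 11406 genes. The 1 gene was Cspg4, whose WT counts at 0.5 ng were all 0 (unadjusted p = 0.0116 and adjusted p = 0.468 in edgeR). DESeq2 called 0 of 7 genes in each interaction. Of all genes it tested, it called 0 of 12598 for 10 ng, 4 of 11254 for 1 ng and 69 of 11200 for 0.5 ng. For Ptprz1, the change in genotype effect from 50 ng was -0.028 (SE 0.34) at 10 ng, 0.27 (SE 0.48) at 1 ng and 0.089 (SE 0.62) at 0.5 ng.

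Over all genes tested, 0.28% passed the adjusted test between genotypes at 50 ng and 0.332% at 10 ng, so short lists would hold few or none. Of 18 further oligodendrocyte lineage regulators, 14 were tested between genotypes at 50 ng and at 10 ng, and 0 passed at either input. Their median log2 fold change was 0.087 at 50 ng and 0.080 at 10 ng. Id2, an inhibitor of helix-loop-helix factors and the most counted of the list, was at 659 ± 55.0 CPM in WT and 602 ± 152 CPM in GFAP-IL6 at 50 ng, a log2 fold change of -0.17 (SE 0.18). Klf9 (0.054, SE 0.20) and the deacetylase gene Sirt2 (-0.29, SE 0.18) followed. Of 20 further progenitor and committed precursor genes, 17 were tested at 50 ng and 18 at 10 ng, with 0 called and medians of 0.14 and 0.20. Its most counted genes at 50 ng were Epn2 (log2 fold change 0.21, SE 0.19), the kinase gene Fyn (-0.26, SE 0.16) and the proteoglycan gene Ncan (0.40, SE 0.22).

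Of 12 PDGF ligands and signalling genes, 10 were tested at 50 ng and at 10 ng and 0 were called. The shares over all genes tested were 0.28% and 0.332%. Pdgfa, which encodes the ligand of the Pdgfra receptor, was at 61.4 ± 5.85 CPM in WT and 59.8 ± 13.6 CPM in GFAP-IL6 at 50 ng, and the log2 fold changes of Ptpn11, Pik3r1 and Pdgfa lay between -0.068 and 0.030. At 1 ng all 8 genes of this list that were tested had a positive log2 fold change, with a median of 0.55 beside -0.0065 over all genes, and at 0.5 ng 3 of 8 did (median -0.38). Of 9 ligands and partners of Ptprz1, 7 were tested at 50 and 10 ng, with 0 called and medians of 0.017 and -0.032. Ptn, the gene of the ligand pleiotrophin, was at 1065 ± 47.3 CPM in WT and 929 ± 114 CPM in GFAP-IL6 (log2 fold change -0.24, SE 0.15). At 1 and 0.5 ng these 4 lists also held 0 called genes, where 0.0323% and 0.0117% of all genes tested were called. Between inputs, Ptn rose by 0.50 (SE 0.10) at 1 ng and 0.55 (SE 0.10) at 0.5 ng against 50 ng (edgeR adjusted p = 0.00436 and 0.00415). Of all genes tested, 1.14% and 1.68% were called in these comparisons. The lineage regulator Id4, a helix-loop-helix inhibitor, fell by 0.76 at 1 ng (SE 0.19, edgeR adjusted p = 0.0307), and no other gene of these 4 lists was called between inputs; Id4 was chosen after its values were seen.

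Mature oligodendrocyte and myelin genes, the product of the lineage, were all measured: 15 of 15 were tested at 50 ng and at 10 ng, with 0 called and medians of 0.034 and -0.029. Mbp, which encodes myelin basic protein, was at 4255 ± 818 CPM in WT and 3623 ± 1563 CPM in GFAP-IL6 at 50 ng (log2 fold change -0.27, SE 0.24), and Cnp gave -0.26 (SE 0.21). Over all genes tested, 0.28% were called at 50 ng and 0.332% at 10 ng, so 0 of 15 is near these shares. The same fits did call genes of other cell types. At 50 ng 3 of 10 microglia markers were called, Ctss at 1.495 (SE 0.22), C1qb at 1.10 (SE 0.22) and C1qc at 1.04 (SE 0.20), with edgeR adjusted p of 0.00126, 0.0235 and 0.0208. Of 10 astrocyte markers, Gfap alone was called at 50 ng and at 10 ng. Ctss was the only marker called at 1 and 0.5 ng, where 0.0323% and 0.0117% of all genes tested were called. At 10 ng Aif1 joined the called microglia markers (log2 fold change 0.87, SE 0.19, edgeR adjusted p = 0.0238).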

How the data were processed

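Frontal cortex RNA of WT and GFAP-IL6 mice was profiled in 32 3'Pool-seq libraries. The deposited values are whole-number counts per gene, not normalized, which the authors made by trimming poly(A), aligning with STAR 2.4 to mm10 and counting uniquely aligned reads with featureCounts. The strand setting is not given in the sources used here. The deposited gene length was used only for CPM per kilobase. Groups were taken from genotype and input in the labels. The 7 genes and the lists were chosen with earlier results of these data known.

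Counts were fitted with edgeR 4.0.16 in R 4.3.3 (TMM, filterByExpr, quasi-likelihood test, Benjamini-Hochberg over all genes tested), with 4 against 4 libraries per input for genotype and the 16 libraries of both inputs for input and interaction. Called genes had an adjusted p under 0.05. Standard errors and 95% intervals were derived from the F statistic. The genotype fit was also run on simulated data in which only well counted genes were changed, and no result here rests on it. Correlations used log2(TMM CPM + 1) and exact permutation tests. Other values came from Python 3.11.15, numpy 2.4.6, pandas 2.3.3, scipy 1.17.1 and matplotlib 3.10.9. Coordinates are from a GENCODE annotation of GRCm38, matched by identifier for 7 of 7 genes.

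Alternatives were DESeq2 1.42.0, its size factors, no filter, the replicate number as a block, a fit of all 32 libraries and each replicate left out. Replicate libraries differed by more than sampling noise (lowest chi-square per degree of freedom 2.15 among 48 pairs), so each counted as 1 sample. The libraries carried no molecular identifiers, and floors cover counting error only. Named genes were the 7 genes, the 3 most counted and every gene called between genotypes in each list, and the 3 genes of the most like pattern, of which the first is named for most; genes named outside this rule are marked, and 1 gene that the rule names is not reported here.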

Additional observations from a re-analysis of the deposited data

Results flagged for a closer look

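In groups of 4 libraries, a value was marked when its gap to the nearest other library, divided by the range of the group, exceeded Dixon's 95% critical value. This marked 13 of 120 groups, 6 of them among the 56 groups of the 7 genes. Chance marks about 1 in 20 groups when values are independent and normally distributed. Groups with several zeros, and the same replicate at several inputs, do not meet this, so no excess over that rate is claimed.

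Among the 7 genes, the marked libraries were Olig1 in WT replicate 2 at 1 ng (136.5 CPM), Pdgfra in WT replicate 4 at 1 ng (12.67 CPM, the only WT library with a count) and in GFAP-IL6 replicate 4 at 0.5 ng (19.47 CPM), and Cspg4 in WT replicate 3 at 1 ng (3.213 CPM, from 4 counts). Gpr17 was marked for 0 CPM in GFAP-IL6 replicate 2 at 50 ng, and Ptprz1 for 187.7 CPM in GFAP-IL6 replicate 4 at 0.5 ng.

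Of the summed marker lists, choroid plexus markers in WT replicate 3 were marked at all 4 inputs (3418, 3044, 3122 and 3129 CPM at 50, 10, 1 and 0.5 ng). Vascular fibroblast markers were marked in GFAP-IL6 replicate 3 at 10 ng (124.7 CPM), neuron markers in WT replicate 2 at 50 ng (7551 CPM) and striatum markers in WT replicate 1 at 1 ng (242.9 CPM).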

How the results depend on the processing

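Of 528 alternative values for 41 log2 fold changes of the 7 genes, 493 kept their direction and side of the threshold and 35 changed sign; 29 results had no change of sign. The number of the 7 genes called stayed at 0 in every alternative but 1: a fit of all 32 libraries called 1 gene, Cspg4, between genotypes at 0.5 ng. That fit called 655 of all 12164 genes tested there.

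The labels do not state that numbers pair libraries. Deviations of same-numbered libraries correlated by 0.0516 to 0.51 between 10 and 50 ng, and 7 of 8 correlated best with their own number. Between genotypes, whose libraries cannot share an animal, the correlations were -0.0026 to 0.19. Here 4 of 4 correlated best with their own number at each of 50, 10 and 1 ng and 1 of 4 at 0.5 ng. Sequencing depth followed the number as well: within every group, replicate 2 was counted least deeply and replicate 4 most deeply. Matches by number could therefore not be told apart from matches by depth, and no conclusion on pairing is drawn from them. The replicate block raised all genes called at 10 ng against 50 ng from 0 to 155 and gave reversed values for Sox10 between genotypes at 10 ng (0.063), Olig1 between genotypes at 0.5 ng (0.11), and Olig1 (-0.073), Olig2 (-0.62) and Gpr17 (-0.88) at 0.5 against 50 ng. DESeq2 reversed Gpr17 at 10 against 50 ng (8.3e-05).

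Leaving out each replicate gave these ranges of log2 fold change where signs differed. Between genotypes they were -0.22 to 0.18 for Sox10, -0.32 to 0.11 for Pdgfra and -0.86 to 0.21 for Cspg4 at 10 ng, -0.23 to 0.066 for Olig1 at 1 ng, and -0.33 to 0.46 for Olig1 and -0.021 to 1.04 for Ptprz1 at 0.5 ng. Between inputs they were -0.14 to 0.25 for Gpr17 at 10 ng, -0.66 to 0.23 for Pdgfra and -0.31 to 0.34 for Gpr17 at 1 ng, and -0.074 to 0.21 for Olig1, -0.48 to 0.48 for Olig2 and -0.30 to 1.01 for Gpr17 at 0.5 ng. Correlated pairs past the adjusted test numbered 0 to 1 of 21.

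Genes called between genotypes at 50, 10, 1 and 0.5 ng numbered 33, 40, 3 and 1, against 48, 67, 11 and 16 with DESeq2, 93, 64, 11 and 5 without the filter, 3, 4, 12 and 655 in the fit of all libraries, and 39, 77, 7 and 1 with the block. The causes were not tested. On plain CPM 3 of 7 genes kept their rank in the order per kilobase. With 4 libraries and few counts, a 2-fold rise of Olig2, Cspg4 and Gpr17 and a 2-fold fall of Cspg4 were within their intervals at 10 ng.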

Other observations

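Pdgfb, which encodes a ligand of PDGF receptors, was noticed after its values were seen. At 0.5 ng it had 0 counts in all 4 WT libraries, while GFAP-IL6 libraries held 17, 6, 15 and 75, at least 32.4-fold higher against 3 counts over the WT group and at least 18.8-fold higher without GFAP-IL6 replicate 4, which held 75 of the 113 counts, with an unadjusted p of 0.00115 and an adjusted p of 0.783 in edgeR. At the other inputs the groups overlapped: the means were 10.3 CPM in WT and 12.7 CPM in GFAP-IL6 at 50 ng, 13.7 and 12.5 CPM at 10 ng, and 10.9 and 12.9 CPM at 1 ng. Of the 8749 genes with a mean of at least 10 CPM at 50 ng, 15 were at 0 in all 4 WT libraries at 0.5 ng and 11 in all 4 GFAP-IL6 libraries.

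Among the remaining marker lists, 0 of 6 vascular fibroblast, 0 of 10 neuron, 0 of 8 striatum and 0 of 2 choroid plexus genes tested were called between genotypes at 50 ng or at 10 ng. Over all genes tested, 0.28% and 0.332% were called. Median log2 fold changes at 50 ng were 0.27, -0.016, -0.52 and -1.60. The last of these rests on WT replicate 3, where summed choroid plexus markers were at 3418 CPM, against 60.5 to 114 CPM in the other WT libraries and 66.1 to 349 CPM in GFAP-IL6. In the striatum list Ppp1r1b, the gene of the dopamine-regulated phosphoprotein DARPP-32, was at 139 ± 23.4 CPM in WT and 87.3 ± 21.7 CPM in GFAP-IL6 (n = 4 each), a log2 fold change of -0.72 (SE 0.20, edgeR adjusted p = 0.269). In the pericyte list Rgs5 was at 46.3 ± 8.37 CPM in WT and 74.7 ± 14.4 CPM in GFAP-IL6, a log2 fold change of 0.65 (SE 0.20, edgeR adjusted p = 0.466), and its libraries did not overlap between genotypes at 50 or 10 ng, where 3.33% and 4.1% of all genes tested did not.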
